A study of Mus musculus with 8 samples.

Results

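Genes that mark mesothelial cells and fibroblasts were followed in cultures of mouse peritoneal macrophages given LECT2. The 10 genes were taken by name, as the probes whose accession in the scanner files is a RefSeq transcript of Upk1b, Upk3b, Msln, Wt1 or Krt19, the 5 mesothelial markers, or of Pdgfra, Postn, Col1a1, Col1a2 or Col3a1, the 5 fibroblast markers. Each has 1 probe, and all 10 passed the filter on dim probes, so that they make up 10 of the 26123 genes tested. Mesothelial cells form the sheet that lines the peritoneal cavity and come off it in small numbers when the cavity is washed out. They carry uroplakins and mesothelin on their surface, keratins in their cytoskeleton and the transcription factor Wt1. Fibroblasts lie beneath the sheet, carry the PDGF receptor alpha chain and secrete periostin and the fibrillar collagens. Macrophages make little of any of these, which is why such genes are read as a measure of the other cells in a macrophage culture.

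Per the labels, cells from the mouse peritoneum were washed, plated and kept in low-glucose Dulbecco's medium with 20% fetal serum, and no selection by a surface marker is named. LECT2, a cytokine-like protein secreted mainly by the liver, was added at 5 µg/ml (the high dose) or 0.5 µg/ml (the low dose), or left out of the control cultures, for 48 h or 3.5 h (the channel labels give the early time as 3 h). The 4 groups are the high dose at 48 h, the low dose at 48 h, the high dose at 3.5 h and the low dose at 3.5 h, each against control cultures of the same time, with 2 arrays a group from 2 independent experiments on different mice. The labels used here give no strain, age or sex of the mice, and do not say whether the arrays of both doses shared 1 control culture. Every array carried RNA of the treated culture in the green dye and RNA of its control in the red dye. With no dye swap, a dye effect of a probe that is the same on all arrays cannot be told apart from a LECT2 effect that is the same in all groups, whereas it cancels in a difference between groups.

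The deposited log2 ratios are the main values below, turned so that a value below 0 means less RNA in the LECT2 culture than in its control. Signals of the 2 channels come from the scanner files, and 7 of the 8 columns of the table match a scanner file that is recorded under another sample. All 4 columns of the 48 h arrays equal the ratio in the matching file (within 0.01 for 99.5% of the probes above background). At 3.5 h the columns followed a file at r = 0.994, 0.978 and 0.974 across probes, and for replicate 1 of the low dose at 3.5 h the best match was its own file, at r = 0.782 only. The channel signals given here are those of the matching files. Under that link 1 slide held all 48 h arrays and the other all 3.5 h arrays, so slide and time cannot be told apart. With the files taken as recorded instead, none of the 10 genes passed the test in any comparison (and 49, 1, 0 and 0 of all genes did so for the low dose at 48 h, the high dose at 48 h, the high dose at 3.5 h and the low dose at 3.5 h). Of the 40 member effects (10 genes in each of 4 groups), 38 were below 0 in that setting. It holds the same 8 arrays under other labels, so this count cannot tell which labels are right. Which of the 2 sets of labels is right was not settled, and every call below rests on the labels of the table. Between 56% and 71.2% of probes were well above background in the LECT2 channel, against 63.1% to 82% in the control channel, and 2 arrays a group limit the precision of each value.

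The 10 markers followed here lay mostly below control with LECT2. Of the 40 member effects, 38 were below 0, the exceptions being Msln and Krt19 at the low dose and 3.5 h. In limma with Benjamini-Hochberg adjustment over all genes, 4 of the 10 fell at the high dose and 48 h (Upk1b, Wt1, Pdgfra and Postn), where 6.93% of all genes tested were called lower. None of the 10 passed at the low dose and 48 h, where 0.0191% of all genes were called lower. At 3.5 h, 3 fell at the high dose (Upk1b, Wt1 and Pdgfra), beside 11.7% of all genes called lower, and 2 at the low dose (Wt1 and Pdgfra), beside 2.14%. No member was called higher in any group, where 4.31%, 0.153%, 10.2% and 2.74% of all genes were, in the same order of groups. The median over the 10 was -1.42 on the log2 scale at the high dose and 48 h, -0.90 at the low dose and 48 h, -0.89 at the high dose and 3.5 h and -1.19 at the low dose and 3.5 h, while the median of all genes lay between -0.03 and 0.02. In such bulk RNA, fewer cells of a type and less RNA per cell cannot be told apart.

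Most of these calls were lost with 1 array left out of each group. Fewer of all genes passed as well, except at the low dose and 3.5 h without replicate 2. Each time the lone array was assumed to vary like the other groups. At the high dose and 48 h the single arrays of replicates 1 and 2 gave -4.94 and -4.66 for Upk1b and -1.65 and -1.71 for Wt1. They gave -3.91 and -3.10 for Pdgfra and -3.20 and -3.51 for Postn.

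**Figure D1:**
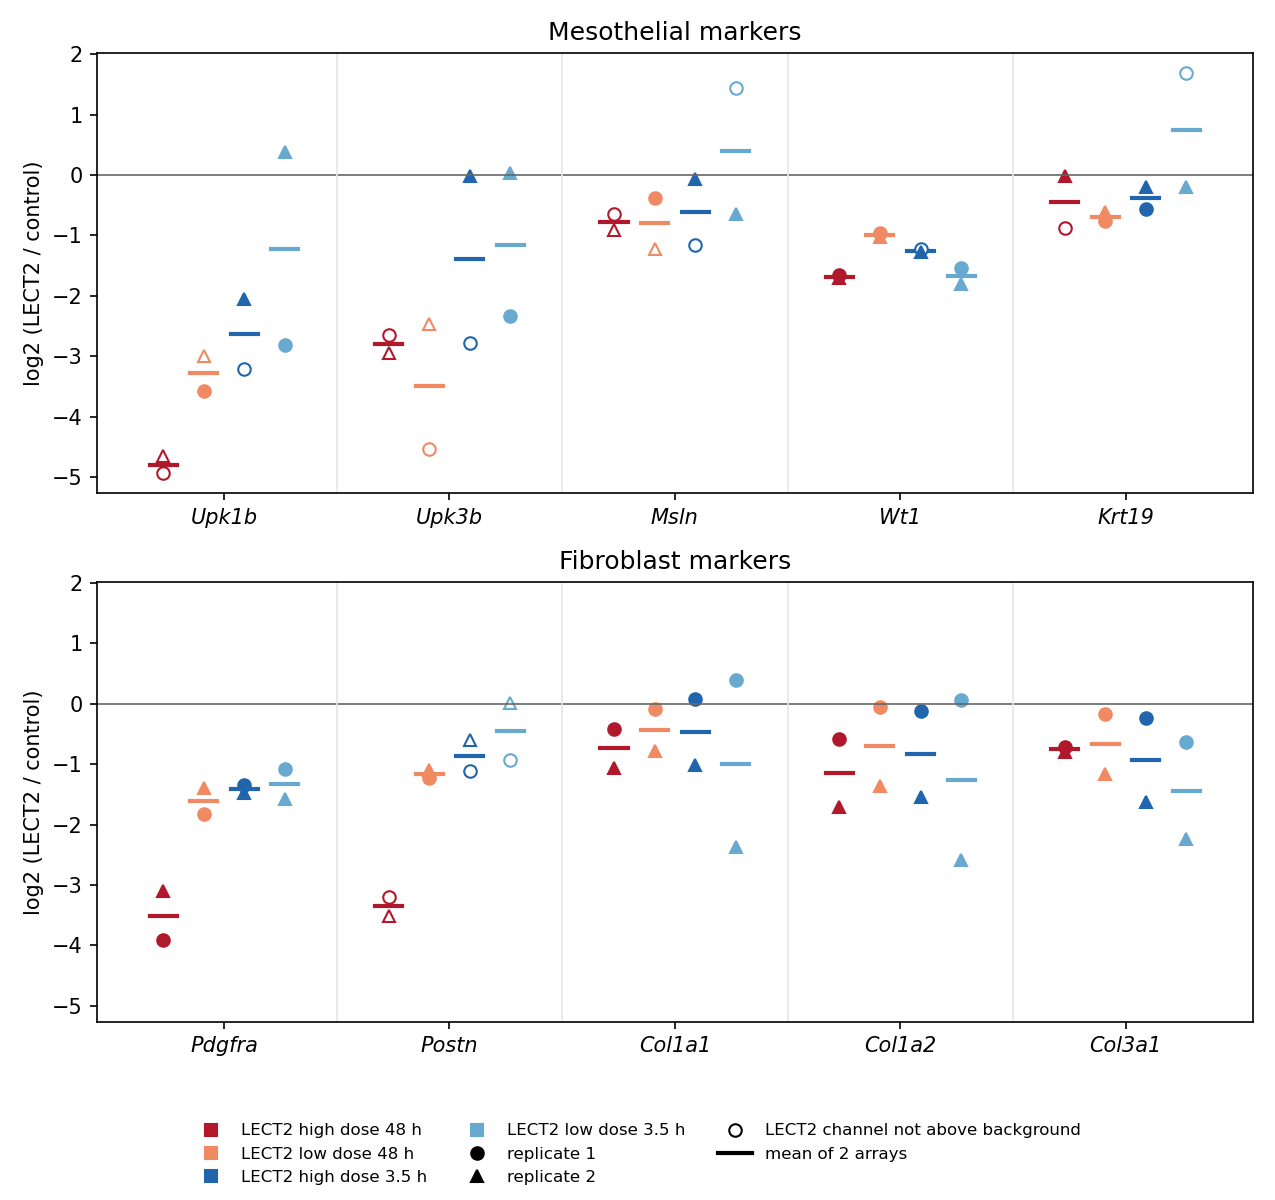
LECT2 effect on the 5 mesothelial markers (upper panel) and the 5 fibroblast markers (lower panel), as the log2 ratio of LECT2 over control on each array (circles replicate 1, triangles replicate 2, bars the mean of the 2 arrays, open symbols arrays whose LECT2 channel was not above background). Upk1b and Upk3b reach down to -4.94 and -4.53, Pdgfra and Postn are lowest at the high dose and 48 h, and the collagens are lower in replicate 2 than in replicate 1 in every group.

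Upk1b, a tetraspanin of the uroplakin family, fell with the high dose at both times. At the high dose and 48 h its signal was 20.3 and 14 in the LECT2 cultures of replicates 1 and 2, against 622 and 353 in the control cultures. The signals at the low dose and 48 h were 45.6 and 25.7 with LECT2, against 542 and 205 in control. For the high dose at 3.5 h they were 52 and 76.3 with LECT2, against 484 and 267 in control. The LECT2 signals lay below the control signals on all 6 of these arrays, with no overlap in any group. Replicate 1 of the low dose at 3.5 h had 59.3 with LECT2, against 425 in control, while replicate 2 had 258 with LECT2, against 201 in control, and was the only array on which Upk1b was not lower.

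The deposited log2 ratio of Upk1b averaged -4.80 at the high dose and 48 h (SE 0.66, limma adjusted p = 0.0087), with -4.94 and -4.66 on the 2 arrays. Neither LECT2 channel there was well above background, so the fold is a bound that holds for normexp background correction and loess only. By it Upk1b was at least 3.68-fold lower, from normalised means of 7.14 with LECT2 and 9.02 in control. For the high dose at 3.5 h the ratio averaged -2.63 (SE 0.66, adjusted p = 0.0279). With the low dose it averaged -3.29 at 48 h (adjusted p = 0.127) and -1.22 at 3.5 h (adjusted p = 0.327), and neither passed. LECT2 was above background on 1 of 2 arrays for the high dose at 3.5 h, and likewise for the low dose at 48 h. The sizes rest on how dim signals were treated. With normexp background correction and loess on the matched files the average was -1.88 at the high dose and 48 h, which is the bound itself. It was -1.48 at the high dose and 3.5 h, and both calls held. The probe is printed in 10 spots on each array, and the SD between those spots was 0.105 to 0.461 on the log2 scale, a technical spread within 1 array that says nothing of the spread between cultures.

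Upk3b, which pairs with Upk1b in the urothelial membrane and is a common marker of mesothelium, had signals of 32.6 and 11.2 with LECT2 at the high dose and 48 h, against 205 and 86.3 in control. The low dose at 48 h gave 7.04 and 8.31 with LECT2, against 163 and 46.1 in control. Replicate 1 was lower at 3.5 h too, with 30.7 at the high dose and 29.9 at the low dose, against 257 and 211 in the controls of those arrays. In replicate 2 at 3.5 h the 2 channels were level, with 81.8 and 102 for the high and low dose, against 69.6 and 84 in control. The log2 ratio averaged -2.80 at the high dose and 48 h (SE 0.78, adjusted p = 0.0602, and 0.0188 with the replicate number as a block). Its average was -3.50 for the low dose at 48 h (SE 0.78, adjusted p = 0.168) and did not pass. The LECT2 channel was not above background on any 48 h array. The same kind of bound was 1.64-fold lower at the high dose and 1.34-fold lower at the low dose. It leaves out the spread between arrays, and neither effect passed without the block, so no least drop was established. At 3.5 h the log2 ratio averaged -1.39 and -1.15 at the high and low dose (adjusted p = 0.237 and 0.446).

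**Figure D2:**
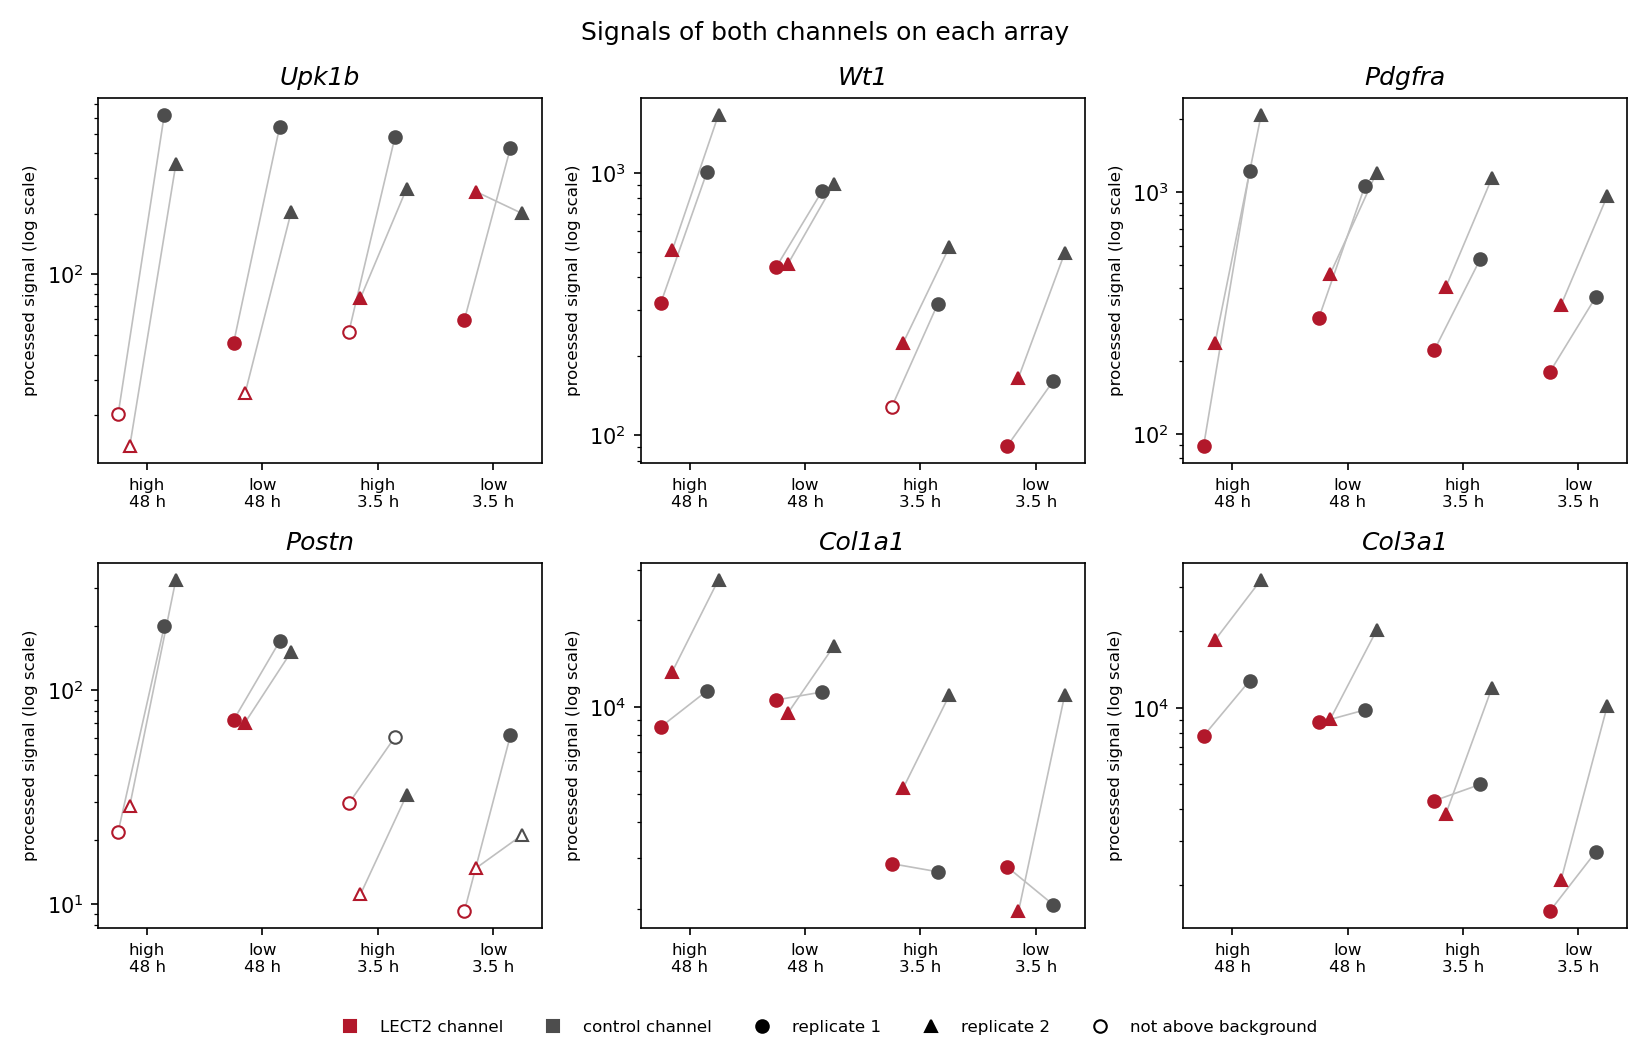
Processed signal (log scale, 1 panel per gene) of the LECT2 channel (red) and the control channel (grey) of each array, joined by a line, for 6 of the 10 genes (circles replicate 1, triangles replicate 2, open symbols not above background). The LECT2 signal of Upk1b is 14 to 76.3 on all arrays but 1, against 201 to 622 in control, and the control signals of Col1a1 at 3.5 h are 2690 and 2070 in replicate 1 and 11000 in both arrays of replicate 2.

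Wt1, a zinc finger transcription factor that marks mesothelium throughout life, differed least between replicates in the deposited ratios. It had signals of 320 and 509 with LECT2 at the high dose and 48 h, against 1010 and 1670 in control, and of 438 and 449 at the low dose and 48 h, against 857 and 911. At 3.5 h it had 128 and 225 at the high dose, against 317 and 522 in control, and 90.8 and 166 at the low dose, against 161 and 495. It was lower with LECT2 on 8 of 8 arrays, though LECT2 was not above background in replicate 1 of the high dose at 3.5 h. The log2 ratio averaged -1.68 at the high dose and 48 h (SE 0.20, adjusted p = 0.0057), -1.25 at the high dose and 3.5 h (adjusted p = 0.0058) and -1.67 at the low dose and 3.5 h (adjusted p = 0.0075), and these 3 passed. Its average of -0.99 at the low dose and 48 h did not pass (adjusted p = 0.127). The SD between the 2 arrays was 0.03 to 0.18 in the deposited ratios. With loess on the matched files the low-dose value at 3.5 h was -0.87 and still passed. The low-dose arrays then lay further apart, at -0.54 and -1.19 at 3.5 h and -0.47 and -0.95 at 48 h. Those of the high dose stayed close, at -0.82 and -0.84 at 3.5 h and -1.37 and -1.42 at 48 h. Replicate 1 of the low dose at 3.5 h is the column that followed its file at r = 0.782 only.

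Msln (mesothelin, a surface glycoprotein) and Krt19 (a keratin of simple epithelia) did not pass the test in any group. Msln had 75.7 and 41.4 with LECT2 at the high dose and 48 h, against 118 and 77.8 in control, and a log2 ratio of -0.77 (SE 0.49, adjusted p = 0.339). Its LECT2 channel was dim on both arrays, and the same kind of bound was 1.13-fold lower, which is the loess value itself. That bound leaves out the spread between arrays, and the effect did not pass, so no least drop was established. Krt19 had 66.5 and 120 with LECT2 there, against 122 on both control channels, and a log2 ratio of -0.44 (SE 0.43, adjusted p = 0.528). Both genes stood above 0 in replicate 1 of the low dose at 3.5 h in the table, at 1.44 and 1.69, on an array where neither channel was above background for either gene. The matched file gave -0.05 and -0.18 for them on that array after loess.

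Pdgfra and Postn had their lowest values at the high dose and 48 h, where both passed the test. Pdgfra is the alpha chain of the receptor for platelet-derived growth factors and a usual surface marker of fibroblasts. It had 89.1 and 238 with LECT2 at the high dose and 48 h, against 1220 and 2080 in control. The low dose at 48 h gave 302 and 460 with LECT2, against 1060 and 1200 in control. At 3.5 h it had 222 and 404 with the high dose, against 529 and 1140, and 180 and 342 with the low dose, against 368 and 962. All 16 signals were above background, and LECT2 was lower on 8 of 8 arrays. The log2 ratio averaged -3.51 at the high dose and 48 h (SE 0.27, 11.4-fold lower, adjusted p = 0.0022), -1.41 at the high dose and 3.5 h (adjusted p = 0.0114) and -1.33 at the low dose and 3.5 h (adjusted p = 0.0372), while -1.61 at the low dose and 48 h did not pass (adjusted p = 0.0922). With loess on the matched files the value at the high dose and 48 h was -2.42, or 5.35-fold lower, and the call held. The SD over its 10 spots on 1 array was 0.06 to 0.31.

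Postn encodes periostin, a matrix protein of fibroblasts under repair. It had 21.8 and 28.7 with LECT2 at the high dose and 48 h, against 199 and 328 in control, and 72.3 and 70.5 at the low dose and 48 h, against 169 and 151. At 3.5 h no LECT2 channel was above background, with signals of 29.6 and 11.1 at the high dose, against 60.4 and 32.3 in control, and of 9.24 and 14.7 at the low dose, against 61.4 and 21. The log2 ratio averaged -3.35 at the high dose and 48 h (SE 0.28, adjusted p = 0.0024). By the bound for a dim channel the drop was at least 2.56-fold. That bound is the value with loess on the matched files (1.35 on the log2 scale), where the call held. The ratio averaged -1.16 at the low dose and 48 h (adjusted p = 0.194), -0.86 at the high dose and 3.5 h (adjusted p = 0.0638) and -0.46 at the low dose and 3.5 h (adjusted p = 0.390), none of which passed. At 3.5 h the bounds were 1.33-fold lower at the high dose and 1.13-fold at the low dose. The control channel was above background on only 1 of 2 arrays in each of these groups. With median centring of the matched files the high-dose value at 3.5 h was 0.029, so its bound does not hold there.

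These genes gave the only calls among the members when the effects of the 2 times were compared. At the high dose the effect on Pdgfra was lower at 48 h than at 3.5 h by 2.10 on the log2 scale (SE 0.38, adjusted p = 0.0243), where 3.79% of all genes were called lower. For Postn the table's values differed by -2.50 (SE 0.39, adjusted p = 0.0191), but its LECT2 channel was not above background on any of these 4 arrays. Both effects on Postn are bounds, their difference has no measured size, and the control signals differed too (199 and 328 at 48 h, against 60.4 and 32.3 at 3.5 h). With loess on the matched files the difference was -1.32 for Pdgfra, which still passed, and -0.85 for Postn, which did not (adjusted p = 0.0780). Neither passed with a replicate left out, where the calls over all genes were lost as well. Between the doses no gene of the whole table passed (0% at either time): Pdgfra and Postn were lower at the high than at the low dose by 1.90 and 2.19 at 48 h, with adjusted p = 0.259 and 0.224 (unadjusted p = 0.0013 and 0.00063), and Upk1b by 1.51 (adjusted p = 0.621), with the high-dose channel of Postn and Upk1b not above background. At 3.5 h Pdgfra differed by -0.08 between the doses and Postn by -0.40. At the low dose no member differed between the times (0.0995% of all genes were called), and the largest differences there were -2.35 for Upk3b and -2.06 for Upk1b (SE 1.11 and 0.93, adjusted p = 0.529 and 0.502), with Upk3b not above background at 48 h.

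RefSeq promoter sequence (GRCm38.p6) matched 5 of the 10 genes, and that of the receptor and the matrix gene that both passed at the high dose and 48 h is shown as the 250 bases before the start, 5′ to 3′ on the plus strand, for Pdgfra at chr5:75152001-75152250 and for the second of the 2 annotated starts of Postn at chr3:54360857-54361106, the 1 of the 2 that holds a motif. Capitals mark motifs found on either strand among 4 searched: TATAAA (the TATA box), CCAAT (the CCAAT box), GGGCGG (the GC box) and TGANTCA (the AP-1 element).
Pdgfra: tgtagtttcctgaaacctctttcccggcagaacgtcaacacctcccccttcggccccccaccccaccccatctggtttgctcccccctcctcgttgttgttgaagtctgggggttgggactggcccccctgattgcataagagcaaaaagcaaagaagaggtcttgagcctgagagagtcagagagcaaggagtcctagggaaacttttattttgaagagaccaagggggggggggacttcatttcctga
Postn: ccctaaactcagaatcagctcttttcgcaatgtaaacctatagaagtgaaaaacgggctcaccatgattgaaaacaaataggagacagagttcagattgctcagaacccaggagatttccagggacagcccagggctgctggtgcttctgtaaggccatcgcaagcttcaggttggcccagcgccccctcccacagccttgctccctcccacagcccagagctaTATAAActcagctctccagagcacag
The Postn sequence holds TATAAA 26 bases before the start, and the Pdgfra sequence holds none of the 4 motifs, nor do the window of the other Postn start (chr3:54359017-54359266) and that of Upk3b. Over all 32851 promoters of the table, windows of this length held TATAAA in 12.4%, CCAAT in 33.8%, GGGCGG in 32.7% and TGANTCA in 6.75% of cases.

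The 3 fibrillar collagen genes differed between the 2 replicates in every group. Col1a1 and Col1a2 encode the 2 chains of type I collagen, and Col3a1 the chain of type III collagen, and fibroblasts spin both into the same fibres. All 48 of their signals were above background. Col1a1 in replicate 1 was nearly level between the channels, with 8550 with LECT2 against 11400 in control at the high dose and 48 h, 10600 against 11300 at the low dose and 48 h, 2870 against 2690 at the high dose and 3.5 h and 2800 against 2070 at the low dose and 3.5 h. In replicate 2 it was lower with LECT2 each time, with 13300 against 27700, 9530 against 16300, 5240 against 11000 and 1960 against 11000 in the same order of groups. The log2 ratio was -0.41, -0.09, 0.08 and 0.40 in replicate 1 and -1.06, -0.77, -1.01 and -2.38 in replicate 2.

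Col1a2 ran the same way, with log2 ratios of -0.59, -0.05, -0.12 and 0.07 in replicate 1 and of -1.71, -1.37, -1.54 and -2.58 in replicate 2. Col3a1 was lower on all 8 arrays, at -0.72, -0.16, -0.23 and -0.64 in replicate 1 and at -0.79, -1.16, -1.62 and -2.24 in replicate 2. In each of the 4 groups the replicate 2 array lay below the replicate 1 array for all 3 genes. None of the 3 passed in any group: the smallest adjusted p was 0.126, for Col3a1 at the low dose and 3.5 h (mean -1.44, SE 0.47), which fell to 0.0407 with the replicate number as a block. At the high dose and 48 h the means were -0.73 for Col1a1 (SE 0.60), -1.15 for Col1a2 (SE 0.66) and -0.76 for Col3a1 (SE 0.47). Centring each matched array on its median in place of loess shifts the median of all genes by -0.14 to -0.28 in the 4 groups, and Col3a1 and Col1a2 then passed at the high dose at both times. So did many others there: 8667 of the 26123 genes were called at 48 h and 11864 at 3.5 h.

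The promoters of 2 of these collagen genes are shown because their effects followed the same arrays, again as the 250 bases before the start on the plus strand, at chr6:4505368-4505617 for Col1a2 and chr1:45311288-45311537 for Col3a1, with the same 4 motifs in capitals.
Col1a2: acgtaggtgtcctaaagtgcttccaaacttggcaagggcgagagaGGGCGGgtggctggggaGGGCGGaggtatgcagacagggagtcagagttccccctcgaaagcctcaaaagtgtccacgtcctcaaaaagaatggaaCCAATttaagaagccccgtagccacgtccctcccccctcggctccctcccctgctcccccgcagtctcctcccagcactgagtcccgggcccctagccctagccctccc
Col3a1: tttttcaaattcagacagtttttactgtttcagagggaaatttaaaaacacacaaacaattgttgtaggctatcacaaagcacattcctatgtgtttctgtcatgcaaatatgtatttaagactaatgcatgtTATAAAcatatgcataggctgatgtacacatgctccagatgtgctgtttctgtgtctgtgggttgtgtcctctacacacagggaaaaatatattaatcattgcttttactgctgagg
Col1a2 holds CCAAT 109 bases and GGGCGG 205 and 188 bases before the start. Col3a1 holds TATAAA 117 bases before it, and the 2 windows share none of the 4 motifs.

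The control channel gives the level of the same genes in the untreated cultures at the 2 times. With quantile scaling of the control channels of the matched files, and averages over both arrays of each time and replicate, Wt1 was higher at 48 h than at 3.5 h, at 10.54 and 10.71 on the log2 scale at 48 h, against 8.79 and 9.54 at 3.5 h (difference 1.46, SE 0.28, 2.75-fold, limma adjusted p = 0.0361). It was the only member called, where 4% of all genes were called higher and 3.81% lower at 48 h. Without the filter on dim probes its adjusted p was 0.0576, and with median centring it was 0.0768. All 5 fibroblast markers were above 0 in this difference in both replicates, whereas 4 of them were below 0 with the files as recorded. Col1a1 was at 14.25 and 14.94 at 48 h, against 11.54 and 13.87 at 3.5 h (difference 1.89, SE 0.71, adjusted p = 0.150). Col3a1 was at 14.28 and 15.15, against 12.03 and 13.84 (difference 1.78, SE 0.60, adjusted p = 0.117).

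Pdgfra differed by 1.00 between the times (adjusted p = 0.120), Postn by 1.04 (adjusted p = 0.0538) and Col1a2 by 0.73 (adjusted p = 0.480). With the replicate number as a block 3419 of the 26123 genes were called in either direction, against 2040 without it. Among them were 5 members, all higher at 48 h: Wt1 (adjusted p = 0.0082), Pdgfra (0.044), Postn (0.0292), Col1a1 (0.0118) and Col3a1 (0.0062). None of the other 4 mesothelial markers passed, with differences of 0.30 for Upk1b, -0.21 for Upk3b, 0.08 for Msln and -0.13 for Krt19. At 3.5 h the control cultures of replicate 2 held more of all 3 collagens than those of replicate 1, by signals of 11000 and 11000 against 2690 and 2070 for Col1a1. With the files as recorded no gene of the table differed between the times in the control channel and 7 of the 10 members changed sign.

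**Figure D3:**
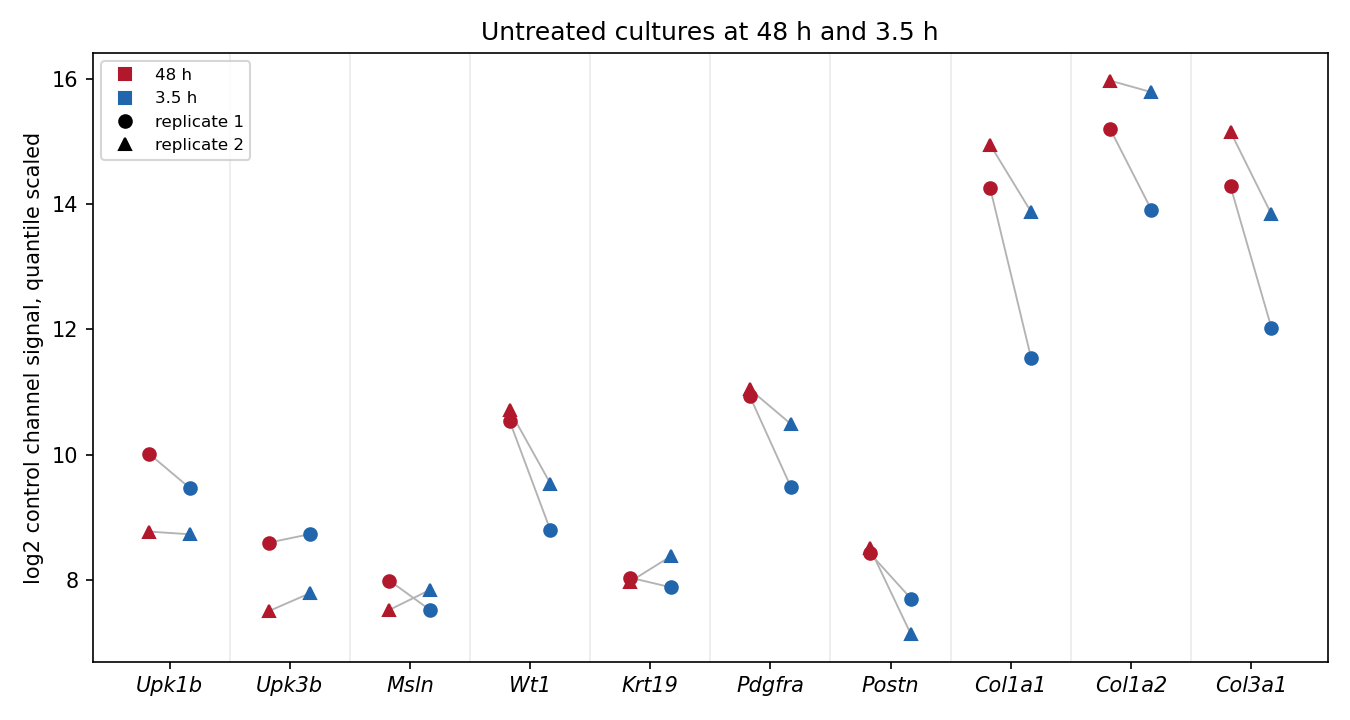
Log2 signal of the control channel (quantile scaled) for the 10 genes in untreated cultures at 48 h (red, left) and 3.5 h (blue, right), with a line for each replicate (circles replicate 1, triangles replicate 2). Wt1, Pdgfra, Postn and the 3 collagens are higher at 48 h in both replicates, and the collagens differ between the replicates at 3.5 h.

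Lists of other genes were set beside the members, chosen with earlier results of these data known, and their counts stand against the shares of all genes called in each group (above). Counts are without a replicate block unless it is named. With that block, 3417 of the 26123 genes were called in either direction at the high dose and 48 h and 97 at the low dose and 48 h. At 3.5 h it called 6055 at the high dose and 1654 at the low dose. Of 14 further mesothelial markers tested, 4 fell at the high dose and 48 h and none was called higher there. The LECT2 channel of all 4 was not above background on either array, so each fold is a bound that holds for normexp and loess only. Bnc1, an epithelial zinc finger protein, was at least 2.18-fold lower (adjusted p = 0.0035), Efemp1, a matrix glycoprotein, at least 1.52-fold (adjusted p = 0.0174), Crb2, a cell polarity protein, at least 1.49-fold (adjusted p = 0.0067) and Gpm6a, a membrane protein, at least 1.33-fold (adjusted p = 0.0233). With the low dose at 48 h 1 fell (Crb2, at least 1.17-fold, adjusted p = 0.0490). For the high dose at 3.5 h Rspo1 fell by 1.46 on the log2 scale (LECT2 above background on 1 of 2 arrays), Bnc1 was at least 1.73-fold lower (control above background on 1 of 2 arrays), and the keratin gene Krt18 rose by 1.87 (adjusted p = 0.0052). Krt18 rose by 1.57 at the low dose and 3.5 h as well (adjusted p = 0.0266), and no list gene fell there. The median of the 14 was -0.76 at the high dose and 48 h, -0.38 at the low dose and 48 h, 0.10 at the high dose and 3.5 h and 0.14 at the low dose and 3.5 h. The summed signal of the 14, in which bright genes such as Cldn15 weigh most (log2 control signals of 15.69 and 15.41 at 48 h), was 40300 and 96700 with LECT2 at the high dose and 48 h. It was 57600 and 48800 in control. Over the 8 arrays the ratio of the sums ran from 0.7 to 1.98 with a median of 1.06. The sum of the 5 mesothelial markers followed here was lower with LECT2 on every array, with ratios of 0.249 to 0.721. With the replicate number as a block 6 of the 14 were called lower at the high dose and 48 h, Krt7 and Aldh1a2 being added.

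Of 39 further fibroblast and matrix genes tested, 5 fell at the high dose and 48 h and none was called higher: Col6a1 (-3.21, SE 0.40, adjusted p = 0.0065) and Col6a2 (-1.64, adjusted p = 0.0366), 2 chains of type VI collagen, the transcription factors Twist1 (-1.36, adjusted p = 0.0315) and Tcf21 (at least 1.17-fold lower from a dim LECT2 channel, adjusted p = 0.0477), and S100a4, a calcium-binding protein that macrophages make too (-1.75, adjusted p = 0.0413). None passed at the low dose and 48 h. At 3.5 h none fell. With the high dose 3 rose (Twist2 by 2.02, Pdgfrb by 1.43 and Pi16 by 1.06) and with the low dose 1 (Twist2 by 2.21, adjusted p = 0.0398). With the replicate number as a block the counts were 10 lower and 1 higher (Lox, by 1.48, adjusted p = 0.233 without the block) at the high dose and 48 h. The block gave 1 lower (Loxl1) and 4 higher at the high dose and 3.5 h, and 3 lower (Col4a1, Dcn and Loxl1) and 1 higher at the low dose and 3.5 h. The summed signal of the 39 was 214000 and 205000 with LECT2 at the high dose and 48 h, against 221000 and 439000 in control. Bright genes weigh most in this sum, first of all Thbs1 and Fn1. Their log2 control signals at 48 h were 16.40 and 17.07 for Thbs1 and 16.04 and 16.34 for Fn1. The PDGF receptor beta chain rose in a group where the alpha chain fell. Between the times at the high dose Col6a1 was lower at 48 h by 2.33 (adjusted p = 0.0463).

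Of 25 genes of collagen synthesis and processing, 2 fell and 1 rose at the high dose and 48 h, beside 6.93% of all genes called lower and 4.31% higher. Tgfb1, a growth factor that drives matrix production, fell (-1.15, adjusted p = 0.0164), as did Pcolce, an enhancer of procollagen cleavage (-1.21, adjusted p = 0.0356), while P4ha1, a prolyl hydroxylase subunit, rose by 1.19 (adjusted p = 0.0478). In the high-dose cultures at 3.5 h 3 rose (Tgfb1 by 1.18, Adamts3 by 1.07 and P4ha3 by 0.72), beside 10.2% of all genes, and none passed with the low dose at either time. With the replicate number as a block Adamts3 (adjusted p = 0.0535) and P4ha3 (adjusted p = 0.0514) no longer passed, and 4 were lower and 2 higher at the high dose and 48 h. Sparc, among those lower, and Lox, among those higher, are in the fibroblast and matrix list too and are counted in both. Between the times at the high dose (48 h minus 3.5 h), 1 of the 25 was called lower and 1 higher. The effect on Tgfb1, the lower one, differed by -2.33 (adjusted p = 0.0122). The differences of the list ran from -2.33 to 1.91.

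Markers of other cells were read in the same fit. Of 7 smooth muscle and pericyte markers, 7 were below 0 at the high dose and 48 h, with a median of -0.87, and 1 passed (Des, desmin, -3.04, SE 0.70, adjusted p = 0.0348). Their summed signal there was 16500 and 20600 with LECT2, against 33900 and 68000 in control, and with the replicate number as a block 4 of the 7 passed, all lower. Acta2 and Tagln, among these 4, are in the fibroblast and matrix list too and are counted in both. Of 13 macrophage markers, 2 fell and 1 rose at the high dose and 48 h, and 0 passed at the low dose and 48 h. Vsig4 fell by 4.53 on the log2 scale (adjusted p = 0.0052, both channels above background on both arrays), a larger drop than that of Pdgfra or Postn. Gata6 fell by 1.35 (adjusted p = 0.0123) and Marco rose by 3.01 (adjusted p = 0.0470). At the high dose and 3.5 h Lyz2 and Csf1r fell (Csf1r with adjusted p = 0.0495, and 0.0596 with the block) and Cd14 rose. With the low dose at 3.5 h Gata6 fell and Timd4 rose. The median of the list lay between -0.21 and -0.03 in the 4 groups. Their summed signal was 325000 to 691000 with LECT2, against 326000 to 556000 in control, and the macrophage genes Adgre1 and Csf1r were above background on all 8 arrays in both channels. Of 12 markers of T, NK and B cells, 2 rose at the high dose and 48 h (Gzma and Cd3g), 0 at the low dose and 48 h, 3 at the high dose and 3.5 h (Cd247, Nkg7 and Gzma) and 1 at the low dose and 3.5 h (Cd247), and none fell. Their median was 0.32 to 0.65, and the ratio of their summed signals 0.91 to 1.92. Of 6 endothelial markers only Cldn5 passed (0.77 at the high dose and 3.5 h, adjusted p = 0.0343), with medians from -0.01 to 0.20.

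The mast cell list of 7 genes had medians of -0.43 to -0.19, and only Hdc, the enzyme that makes histamine, passed, higher at 3.5 h with both doses. At the high dose its control channel was above background on 1 of 2 arrays (4.52 on the log2 scale), and at the low dose on neither, so that it was at least 1.77-fold higher there. In the untreated cultures 2 of the 7 mast cell genes were called lower at 48 h than at 3.5 h, with Cma1 at -4.26 and Cpa3 at -3.88 on the log2 scale (adjusted p = 0.0223 and 0.0259, above background on 3 and 2 of the 4 arrays at 48 h). Of the 12 lymphocyte markers 6 were called lower. The fibroblast list had 1 gene called higher at 48 h (Lum, lumican, 1.93, adjusted p = 0.0205) and 1 lower (S100a4, -2.25). In the list of further mesothelial markers 1 was called higher (Cldn15, 1.16, limma adjusted p = 0.0303). The collagen synthesis list had 1 higher (Fkbp10, 1.73, adjusted p = 0.0442) and the macrophage list 1 lower (Timd4, -1.53, adjusted p = 0.0227). The part of any of these other cells in the members' values was not tested.

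**Figure D4:**
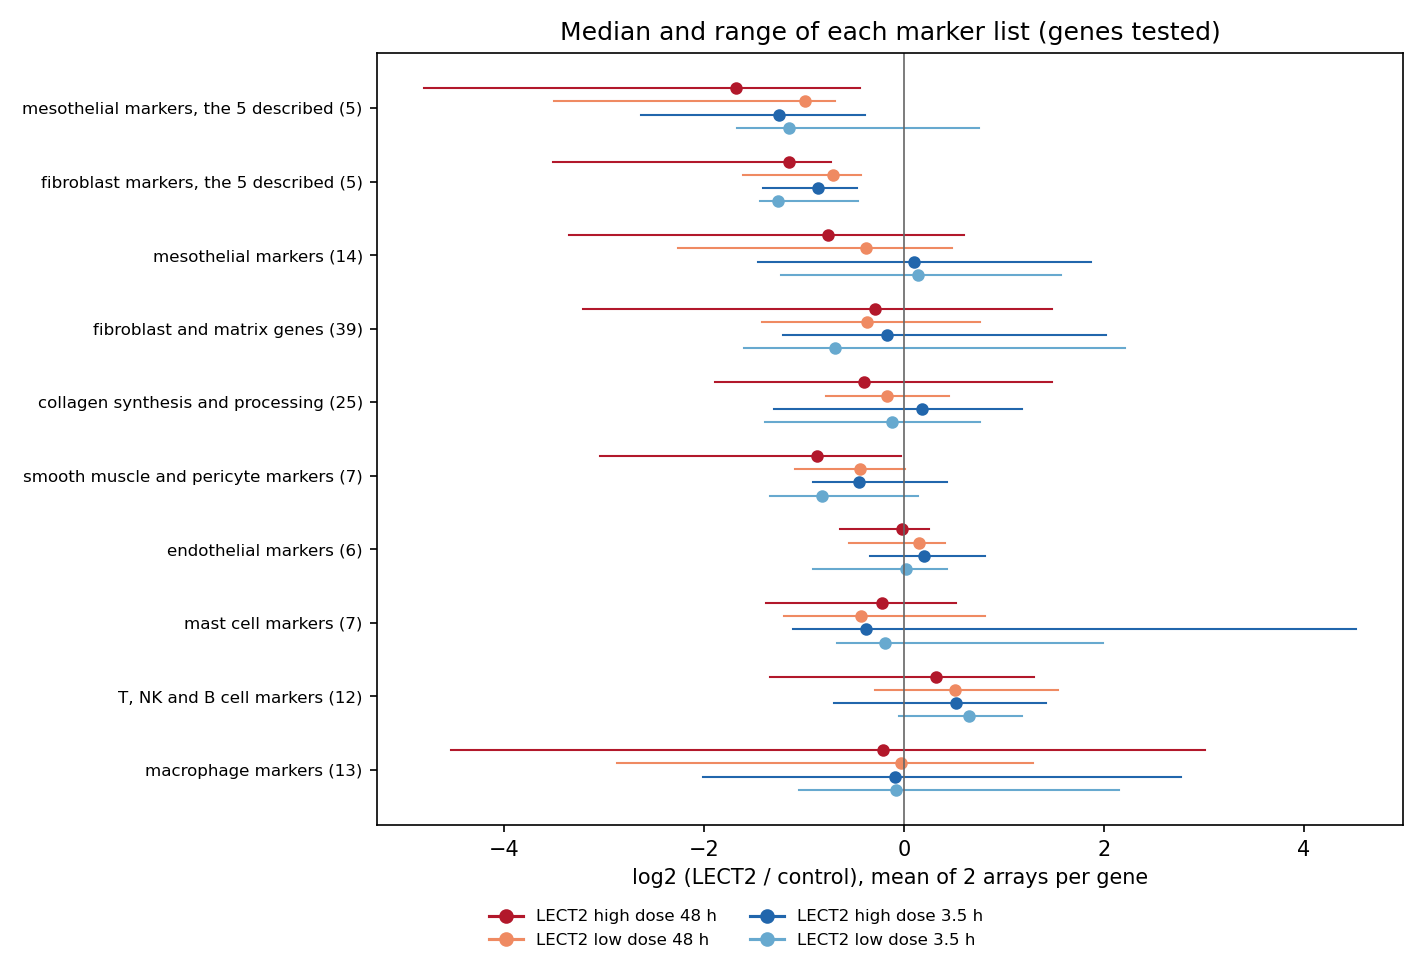
Median (point) and range (line) of the log2 ratio of LECT2 over control for each marker list in the 4 groups, with the number of genes tested in brackets; the 5 described are the 5 markers of each type followed here. The medians of both sets of 5 lie between -1.68 and -0.71 in all groups, those of the macrophage list between -0.21 and -0.03, and those of the T, NK and B cell list between 0.32 and 0.65. Those of the 14 further mesothelial markers lie between -0.76 and 0.14, above 0 at 3.5 h with both doses. Those of the 39 further fibroblast and matrix genes lie between -0.69 and -0.17. Single macrophage genes run from -4.53 to 3.01 at the high dose and 48 h.

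As a description, genes were ranked by how closely their 8 effects followed the mean of the 5 mesothelial or the 5 fibroblast markers, among 8214 named genes that varied at least as much as the median gene. Nearest to the mesothelial mean were Tbc1d2b (r = 0.978), Tspan33 (0.974), Tsc22d1 (0.938), Ascl3 (0.937) and Cd28 (0.931). Nearest to the fibroblast mean were Cadm3 (r = 0.981), Ecscr (0.978), Hoxd9 (0.973), Bub1b (0.972) and Gm128 (0.966). The 8 arrays share 4 groups and 2 experiments, and no test was made of these values.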

How the data were processed

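RNA of 8 pairs of LECT2-treated and control cultures was hybridised to 8 arrays with 2 dyes. Per the file headers, Agilent Feature Extraction 10.7.3.1 read the slides and wrote median spot and background intensity, background-subtracted and dye-normalised processed intensity, and the log10 ratio of the red over the green channel. The authors deposited log2 values, with 1 column per sample; how they were made is not given in the sources used here, and comparison with the scanner files showed them to be red over green (control over LECT2), so their sign was reversed. Each array has 44397 spots, 43020 of them not controls. Accessions were matched to RefSeq (GRCm38.p6, for names and promoters), which named 26411 of 39428 probes and left 13017 unnamed.

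A probe was kept if 1 of its channels was above background on 2 or more of the 8 arrays (31587 probes), with the brightest probe per gene (26123 genes, 16730 with a symbol). Tests used limma 3.58.1 in R 4.3.3 (with the data.table package, 1.17.8) on 4 group means with 4 residual degrees of freedom, at an adjusted p of 0.05. Control channels were corrected with normexp (offset 50) and quantile scaled (2 residual degrees of freedom). Alternatives were normexp with loess or median centring, processed signals, the files as recorded, other filters, all probes averaged, a replicate block and each replicate left out. The replicate numbers were taken to be the 2 experiments with different mice that the series describes; deviations of same-numbered arrays correlated between groups at r = 0.0458, 0.197, 0.167, 0.00313, 0.47 and -0.057. A fold with a dim LECT2 channel is a bound under normexp and loess. It takes each array's higher value of the lowest signal well above background and the probe's own signal. For Upk1b, Upk3b, Msln and Postn at the high dose and 48 h the bound equals the loess value. It does not cover other processing or the spread between arrays.

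The test was checked on simulated data for the high dose at 48 h (26123 genes): 1.49% of genes changed by 1 on the log2 scale were recovered, 65.7% of those changed by 2 and 95.5% of those changed by 4, and 6 unchanged genes were called. Those sets held 67, 67 and 66 genes, with independent normal noise, whereas 2935 genes were called in the real comparison. The adjustment is stricter where fewer genes change, so these rates do not carry over to that comparison. The 10 genes, the lists and the rules were chosen with earlier results of these data known. Named genes are the 10 markers, up to 4 of each list with the smallest adjusted p past 0.05 in a comparison, and the 5 genes nearest to each mean profile. Of 129 other listed genes, 119 were tested and 10 were not (Muc16, Podxl, Col6a3, Col12a1, Thbs2, Fap, Cd68, Cdh5, Ptprb and Ms4a2).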

Additional observations from a re-analysis of the deposited data

Results flagged for a closer look

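The test of the difference between the times at the high dose (limma, 48 h minus 3.5 h) called 2 of the 10 genes. Pdgfra had effects of -3.91 and -3.10 at 48 h, against -1.34 and -1.48 at 3.5 h, a difference of -2.10 on the log2 scale (SE 0.38, adjusted p = 0.0243), with all 8 signals above background. Postn had -3.20 and -3.51 at 48 h, against -1.11 and -0.60 at 3.5 h, a difference of -2.50 (SE 0.39, adjusted p = 0.0191), but no LECT2 signal was above background on any of the 4 arrays, so both effects are bounds and their difference has no measured size. The control signal of Postn on these arrays was 199 and 328 at 48 h, against 60.4 and 32.3 at 3.5 h. Under the matched link all 48 h arrays lie on 1 slide and all 3.5 h arrays on the other, and slide and time cannot be told apart.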

How the results depend on the processing

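The number of members called stayed within 1.5 times the reported one under most alternatives. With the files as recorded, 0 members passed for the high dose at 48 h, the high dose at 3.5 h, the low dose at 3.5 h, the time difference at the high dose and the control channel. Median centring of matched files called 5 at the high dose and 3.5 h and 1 (Pdgfra) at the low dose and 48 h. The time difference at the high dose called 1 member with loess, median centring, processed signals or the strict filter (above background on all 8 arrays, which drops Postn). Without a filter, 1 passed at the low dose and 3.5 h and 0 in the control channel. The control channel called 2 with processed signals and 5 with the replicate block, where 2407 and 3419 of all genes were called. Beside the calls named in the report, the block changed no other call of a member. With a replicate left out, fewer members were called at the high dose at either time and for the time difference at the high dose. Fewer of all genes were called there too. The control fit then has no residual degrees of freedom. At the low dose and 3.5 h, leaving out each replicate spanned -2.82 to 0.37 for Upk1b, -2.34 to 0.033 for Upk3b, -0.64 to 1.44 for Msln, -0.19 to 1.69 for Krt19, -0.92 to 0.0060 for Postn, -2.38 to 0.40 for Col1a1 and -2.58 to 0.069 for Col1a2, and -1.01 to 0.076 for Col1a1 at the high dose and 3.5 h. Krt19 at the low dose and 3.5 h was -0.14 with loess, -0.40 with processed signals and -0.10 as recorded. As recorded, Msln was -0.023, Col1a1 0.23 and Col1a2 0.040 in that group, and the time difference at the high dose 0.65 for Pdgfra and 0.53 for Postn. Median centring gave 0.029 for Postn (high dose, 3.5 h), 0.12 for Msln (low dose, 48 h) and 0.035 for Krt19 (high dose, 48 h). In the control channel the recorded files gave -0.16 for Upk1b, -0.13 for Wt1, 0.30 for Krt19, -0.21 for Pdgfra, -0.32 for Postn, -0.17 for Col1a1 and -0.036 for Col1a2, and median centring -0.0091 for Upk1b and 0.050 for Krt19. The cause of these shifts was not tested. Over all genes, median centring called 11864 at the high dose and 3.5 h, 8667 at the high dose and 48 h and 3436 at the low dose and 3.5 h, against 5721, 2935 and 1277 as reported.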
